A study of Mus musculus with 18 samples.

Results

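Cholesterol and fatty acid synthesis were examined through 29 named genes of the SREBP pathway, out of 57126 genes in the count table of 18 mouse mammary tumors. The genes were taken by name and fall into 4 regulators (Srebf1, Srebf2, Scap and Insig1), 19 genes of the sterol branch and 6 genes of the fatty acid branch. They were chosen with earlier results of these data known, and the study had reported cholesterol gene sets as enriched in its MaP R245W/- tumors. All 29 passed the filter on low counts in each comparison, and the lowest count of any of them in a tumor was 89. Library totals were 23113578 to 27930163 counts in MaP R172H/-, 30030630 to 37365062 in MaP R245W/- and 24736337 to 32085794 in MaP -/- tumors. Together the 29 genes held between 0.214% of the counts (tumor JM779-T1) and 0.877% (tumor JM833-T1).

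The tumors arose in female F1 mice of the BALB/c and C57BL/6J strains after adenovirus carrying Cre recombinase was injected into the mammary gland in young adulthood, and their age at collection is not reported here. Cre removed wild-type Trp53 from infected ductal epithelial cells, which left 1 mutant and 1 deleted Trp53 allele in the 7 MaP R172H/- and the 5 MaP R245W/- tumors and no functional allele in the 6 MaP -/- tumors. Stromal and immune cells kept wild-type p53, and a Rosa26 LSL-TdTomato/+ reporter was labelled in 3 MaP R172H/- and 3 MaP R245W/- tumors. The 6 MaP -/- tumors came from 4 mice, because JM663 and JM833 each gave a T1 and a T2 tumor, whereas every other tumor had a mouse of its own. Tumors of 1 mouse were fitted as separate samples, so the p-values measure the spread between these tumors and not between mice. The MaP R172H/- libraries were read on a HiSeq instrument and all other libraries on a NovaSeq instrument, so sequencing platform and the MaP R172H/- genotype cannot be told apart. The study also classed the MaP R172H/- tumors as luminal B or HER2-enriched adenocarcinomas and the tumors of both other groups as triple negative, so tumor subtype follows the same line. By histology it classed all MaP R172H/- tumors as nonmetaplastic. Both other groups held metaplastic and nonmetaplastic tumors, and JM1126 was a sarcoma. The part of histology in the levels was not tested. JM779-T1 and JM836-T1 are named as labelled, where the study's own list marks the T2 tumors of these mice as sequenced.

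Sterol regulatory element-binding proteins are membrane-bound transcription factors that reside in the endoplasmic reticulum. When membrane cholesterol falls, Scap escorts them to the Golgi, where proteases release the active part, and Insig proteins hold Scap back when sterols are plentiful. The Srebf2 product acts mainly on cholesterol synthesis, and the Srebf1 products act mainly on fatty acid synthesis, which the lactating mammary gland runs at a high rate to make milk fat.

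The sequence elements behind this control were looked for in the promoters of these genes, and 4 promoters are shown because they belong to genes that carry the results or hold the classical sterol element. RefSeq promoters (GRCm38.p6, 250 bases before to 50 after each start) were on hand for 23 of the 29 genes and gave 29 windows. Fdft1, Fdps, Scd1, Scd2, Sqle and Stard4 had no entry. The 250 bases before the start are printed 5′ to 3′ on the strand of the gene, with capitals for a match, on either strand, to the sterol element TCACNCCA, to the NF-Y box CCAAT, or to the Sp1 box GGGCGG. Srebf2 lies at chr15:82147019-82147268 (plus strand), Hmgcs1 at chr13:119690101-119690350 (plus strand), Msmo1 at chr8:64733579-64733828 (minus strand) and Idi1 at chr13:8885356-8885605 (plus strand).
Srebf2: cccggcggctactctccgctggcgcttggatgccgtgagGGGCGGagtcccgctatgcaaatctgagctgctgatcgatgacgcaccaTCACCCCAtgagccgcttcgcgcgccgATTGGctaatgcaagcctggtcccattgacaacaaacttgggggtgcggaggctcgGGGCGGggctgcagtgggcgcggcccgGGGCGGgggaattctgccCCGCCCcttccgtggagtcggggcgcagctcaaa
Hmgcs1: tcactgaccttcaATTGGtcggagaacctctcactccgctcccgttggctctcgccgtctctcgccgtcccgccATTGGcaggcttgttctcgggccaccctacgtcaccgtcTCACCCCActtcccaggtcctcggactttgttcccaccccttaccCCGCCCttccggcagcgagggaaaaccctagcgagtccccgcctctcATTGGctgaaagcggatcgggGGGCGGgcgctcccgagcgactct
Msmo1: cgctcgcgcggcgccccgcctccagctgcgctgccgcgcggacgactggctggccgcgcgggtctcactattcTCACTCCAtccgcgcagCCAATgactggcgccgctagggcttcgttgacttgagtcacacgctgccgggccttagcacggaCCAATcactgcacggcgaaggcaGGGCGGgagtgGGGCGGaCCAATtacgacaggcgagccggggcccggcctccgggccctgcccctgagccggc
Idi1: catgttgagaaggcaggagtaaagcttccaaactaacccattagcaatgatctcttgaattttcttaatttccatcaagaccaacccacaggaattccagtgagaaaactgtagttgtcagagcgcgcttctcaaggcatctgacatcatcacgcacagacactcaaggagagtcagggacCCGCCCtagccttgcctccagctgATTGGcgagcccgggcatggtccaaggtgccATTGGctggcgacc

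The sterol element TCACNCCA was present in 3 of the 23 genes, namely Srebf2, Hmgcs1 and Msmo1, and began 162, 137 and 177 bases before their starts. It was found in 10.3% of the 29 windows and in 4.36% of all 32851 promoters of the same length. The longer form TCACNCCAC, which contains the shorter one, matched Hmgcs1 alone, against 1.24% of all promoters. The motif CCAAT was found in 19 of the 23 genes and in 69% of their windows, against 37.4% of all promoters. The motif GGGCGG was found in 19 genes and in 75.9% of the windows, against 35.7% of all promoters. The E-box CACGTG, which reads alike on both strands, was found in Dhcr7, Hsd17b7, Insig1, Sc5d and Scap, in 20.7% of the windows against 7.15% of all promoters. Idi1, whose level separated the mutant groups as described further on, had no TCACNCCA match, 2 matches to CCAAT and 1 to GGGCGG in the stretch printed. A match describes letters in the window and not a bound site.

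Several libraries stood apart from the rest of their groups in markers of cell type. Marker levels are sums over each list of CPM, the counts scaled to a common library size by TMM. YZ7 (MaP R172H/-) had an epithelial sum over 9 markers of 318.5 where the other 6 tumors of its group had 2574 to 10110, and a sum over 5 Schwann cell markers of 1087 where the others had 156.8 to 507.7. JM833-T1 (MaP -/-) had an adipocyte sum over 9 markers of 4532 where the other 5 tumors of its group had 35.5 to 459.2. JM779-T1 (MaP -/-) and JM1233 (MaP R245W/-) had the lowest epithelial sums of their groups, 147.1 and 468.2, while YZ11 had the highest of all tumors, 10110. Sums over 6 skeletal muscle markers were 982.7 in JM1233, 182.5 in JM1133 and 42.7 in JM1126, where JM1564 and RM0014 had 6.61 and 2.67. YZ4 had an adipocyte sum of 529.8 where the other MaP R172H/- tumors had 22.3 to 157, and JM1233 and JM1126 had leukocyte and macrophage sums of 1683 and 909.6 where the other MaP R245W/- tumors had 249.8 to 461.6. No marker of any list was at 0 throughout a group. In bulk tissue, fewer cells of a type and less RNA per cell cannot be told apart. Trp53, the gene targeted in the model, had 10.8, 45.8 and 50.3 CPM (lowest, median and highest) in MaP R172H/- tumors and 9.43, 12.2 and 21.6 CPM in MaP -/- tumors, and 11.4, 27.1, 9.09, 27.6 and 59 CPM in JM1233, JM1564, RM0014, JM1126 and JM1133. YZ11 and JM1233 thus lay within the MaP -/- range and RM0014 just below it.

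Relative to MaP -/- tumors, the sterol branch had log2 fold changes above 0 for most genes in both mutant groups, but single genes rarely passed the test. The contrasts used edgeR's quasi-likelihood test over all genes, and genes with a Benjamini-Hochberg FDR below 0.05 were called. In MaP R172H/- tumors, 2 of the 29 genes were called higher (Srebf2 and Scap), against 3.67% of the 20954 genes tested. An unadjusted p below 0.05 was reached upward by 6 of the 29 (11.6% of all genes) and downward by 1 (13.1% of all genes). Of the 29 genes, 23 had a log2 fold change above 0, where 50.2% of all genes did. The median over the 29 was 0.32 on the log2 scale and that over all genes was 0.0027. Neither call exceeded 1 on the log2 scale. With a tumor left out, an unadjusted p below 0.05 was reached by 4 to 8 genes in either direction, the low end being reached without YZ7, JM836-T1, JM663-T1 or JM833-T2. The share of all genes in those fits is not given here, so this range cannot be read as particular to the 29 genes.

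In MaP R245W/- tumors, no member was called by edgeR, and 0% of the 21452 genes tested were called higher. An unadjusted p below 0.05 was reached by 11 of the 29 genes, all upward, against 5.32% of all genes, and DESeq2's Wald test called 1 of them, Mvd, among 427 genes in all. The fitted log2 fold change was above 0 for 25 of the 29 genes and for 51.8% of all genes, with medians of 0.45 and 0.0195. The 29 genes were chosen with earlier results of these data known, so these counts are not independent of the data. When the mutant groups were compared with each other in a fit of all 18 tumors, 1 of the 29 genes was called lower in MaP R172H/- tumors (Idi1), against 6.49% of the 22481 genes tested. An unadjusted p below 0.05 was reached downward by 4 genes (14.6% of all genes), and in either direction by 2 without JM1126 and by 9 without YZ7. For the last 2 counts the share of all genes is not given here, so they cannot be read as particular to the 29 genes. The log2 fold change was above 0 for 10 of the 29 (50.2% of all genes). Both comparisons with MaP -/- tumors used the same 6 controls, so their values are given side by side and are not independent.

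**Figure D1:**
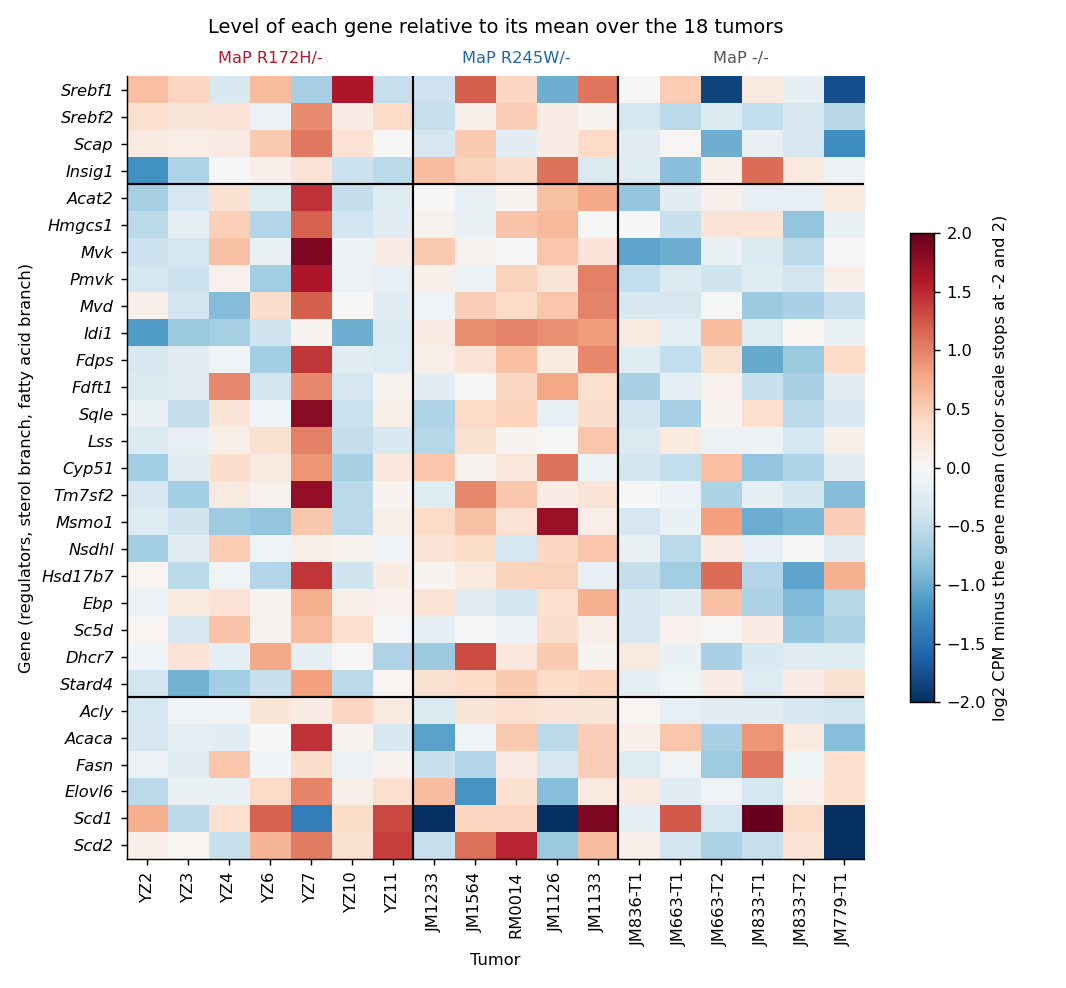
Color map of the level of each of the 29 genes (rows) in each of the 18 tumors (columns), as log2 CPM minus the gene's mean over all tumors, with black lines between genotypes and between regulators, sterol branch and fatty acid branch. The column of YZ7 is above the mean for nearly the whole sterol branch, the MaP R245W/- columns are mostly above it, and Scd1 and Scd2 have the widest range.

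**Figure D2:**
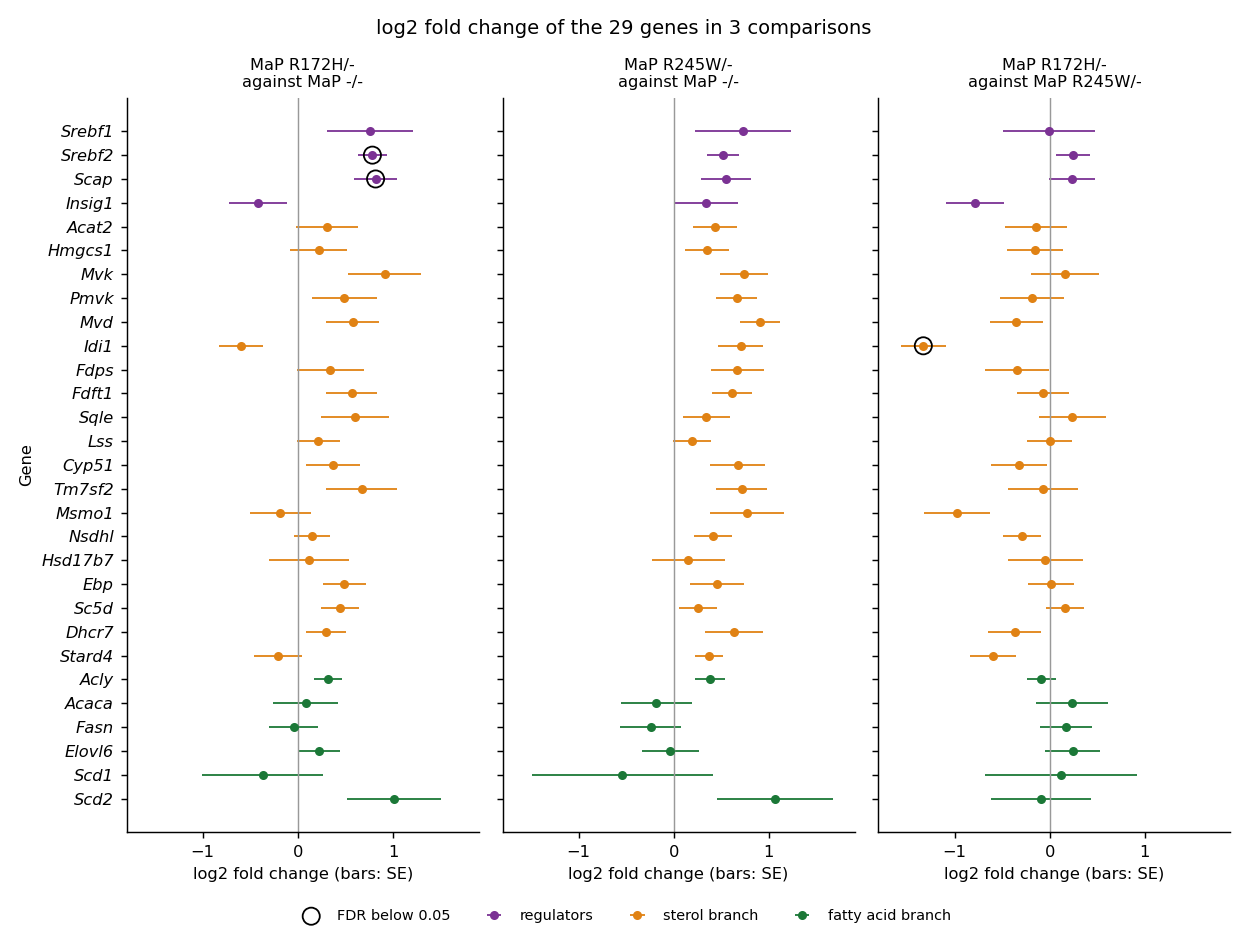
Fitted log2 fold change (points) with its SE (bars) for each of the 29 genes in the 3 comparisons, colored by branch, with a circle around genes with an FDR below 0.05. All 19 sterol branch genes lie above 0 in MaP R245W/- against MaP -/- tumors without a circle, and the circles mark Srebf2 and Scap in the first comparison and Idi1 in the third.

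Among the regulators, Srebf2, which encodes the transcription factor that drives cholesterol synthesis genes, had the most clearly separated levels. The gene (ENSMUSG00000022463.9) lies at chr15:82031382-82093201 in GRCm39, plus strand. Its levels were 105, 136.5 and 219.4 CPM (lowest, median and highest) in the 7 MaP R172H/- tumors and 77.7, 84.8 and 93.9 CPM in the 6 MaP -/- tumors. In the MaP R245W/- tumors JM1233, JM1564, RM0014, JM1126 and JM1133 they were 82.9, 121.8, 160.5, 126.7 and 118.4 CPM. Every MaP R172H/- tumor was thus above every MaP -/- tumor, and 4 of the 5 MaP R245W/- tumors were as well. It was the only one of the 29 genes whose groups were apart in this direction, a pattern shown by 2.01% of all genes. On the log2 scale the difference was 0.78 (SE 0.16, FDR 0.00831) in MaP R172H/- tumors and 0.51 (SE 0.17, unadjusted p 0.0101, FDR 0.360) in MaP R245W/- tumors. The difference between the mutant groups was 0.25 (SE 0.17, FDR 0.398). Srebf2 was called in MaP R172H/- tumors whichever of the 13 tumors was left out, with a log2 fold change of 0.66 without YZ7. Its exons share 686 bases with those of Shisa8 on the opposite strand.

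Scap, the escort protein that carries SREBPs to the Golgi, was the other gene called in MaP R172H/- tumors. It (ENSMUSG00000032485.15) lies at chr9:110158229-110214024, plus strand. Levels were 56.9, 64.3 and 117.8 CPM (lowest, median and highest) in MaP R172H/- tumors and 23.95, 46.6 and 57.6 CPM in MaP -/- tumors. The groups overlapped by YZ11 at 56.9 CPM and JM663-T1 at 57.6 CPM. In the MaP R245W/- tumors the levels were 44.7, 81.5, 48.6, 62.5 and 74.4 CPM in the order given above. The log2 fold change was 0.82 (SE 0.23, FDR 0.0412) in MaP R172H/- tumors and 0.55 (SE 0.26, FDR 0.434) in MaP R245W/- tumors. The call stood close to the threshold. The FDR of Scap was below 0.05 in 2 of the 13 fits that left out a tumor, and it lay between 0.0343 and 0.0902 over them.

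Srebf1, whose products drive fatty acid synthesis, varied 11.04-fold between its lowest and highest tumor. It had 141.6, 303 and 693.2 CPM (lowest, median and highest) in MaP R172H/- tumors and 62.8, 211.6 and 319.5 CPM in MaP -/- tumors. Levels in MaP R245W/- tumors were 168.2, 514.7, 298.6, 114.5 and 471.1 CPM. The groups overlapped widely, and the log2 fold changes of 0.76 (SE 0.45, FDR 0.316) and 0.73 (SE 0.50, FDR 0.574) did not pass the test. Without YZ10 the former was 0.43, and without JM1564 the latter was 0.48. The low tumors JM663-T2 (62.8 CPM) and JM779-T1 (66.4 CPM) were also the lowest for Scap, at 28.9 and 23.95 CPM.

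Insig1, a sterol-dependent brake on SREBP release and itself an SREBP target, was called in none of the 3 comparisons. It had 14.6, 25.0 and 40.6 CPM (lowest, median and highest) in MaP R172H/- tumors and 18.8, 33.6 and 73.3 CPM in MaP -/- tumors, with the highest level in JM833-T1. MaP R245W/- tumors had 51.8, 46.5, 42.7, 71.1 and 27.4 CPM. In edgeR's fit the log2 fold change was -0.42 (SE 0.30, FDR 0.418) in MaP R172H/- tumors, 0.34 (SE 0.34, FDR 0.710) in MaP R245W/- tumors and -0.79 (SE 0.31, unadjusted p 0.0209, FDR 0.119) between the mutant groups. Without JM833-T1 the values against MaP -/- tumors were -0.12 and 0.64, and without JM1126 the value in MaP R245W/- tumors was 0.15.

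In MaP R245W/- tumors no sterol branch gene passed edgeR's test. All 19 genes had a log2 fold change above 0 (51.8% of all genes), from 0.15 to 0.90 with a median of 0.62. An unadjusted p below 0.05 was reached by 9, all upward (5.32% of all genes). These counts too come from genes chosen with earlier results of these data known. All 19 also stayed above 0 whichever of the 11 tumors was left out, with a median between 0.41 and 0.64, and no sterol gene was called in those fits. Markers of other cell types moved in the same comparison. Of the epithelial markers 9 of 9 were above 0 (median log2 fold change 0.94), with 2 at an unadjusted p below 0.05. Of the skeletal muscle markers tested 5 of 5 were above 0 and at such a p (median 6.49), as were 5.32% of all genes. Muscle sums were 982.7, 182.5 and 42.7 CPM in JM1233, JM1133 and JM1126, and 6.61 and 2.67 CPM in JM1564 and RM0014. They were 2.33 to 4.78 CPM in MaP -/- tumors. Of the adipocyte markers tested 8 of 8 were below 0 (median -6.42), where 51.8% of all genes were above 0. Adipocyte sums were 4532 and 459.2 CPM in JM833-T1 and JM833-T2, and 35.5 to 91.1 CPM in the other MaP -/- tumors. MaP R245W/- tumors had 28.4 to 68.8 CPM. Of the 6 leukocyte and macrophage markers 4 were below 0 (median -0.29) and 2 above it. The part of these cell types in the sterol branch levels was not tested. In MaP R172H/- tumors 16 of 19 genes were above 0 with a median of 0.34. There, 3 genes reached an unadjusted p below 0.05 upward (11.6% of all genes) and 1 downward (13.1% of all genes). Without YZ7 that median was 0.13, and 12 of 19 genes were above 0. Cell type markers moved in MaP R172H/- against MaP -/- tumors as well. Above 0 were 9 of 9 epithelial (median 1.28) and 5 of 5 Schwann cell markers (median 2.01). Below 0 were 8 of 8 adipocyte markers tested (median -2.91) and 6 of 6 leukocyte and macrophage markers (median -1.14). Their part in the levels of these genes was not tested. In the direct comparison 15 of 19 genes were lower in MaP R172H/- tumors, with a median of -0.15, and the median was -0.45 without YZ7.

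A level per tumor was then taken, for which each sterol gene was centred on its mean over the 18 tumors and averaged on the log2 scale. YZ7 had the highest sterol level (1.01) and was the highest of all tumors for 12 of the 19 genes. The next highest were 4 MaP R245W/- tumors, JM1126 (0.51), JM1133 (0.42), JM1564 (0.30) and RM0014 (0.28), and the fifth, JM1233, had 0.01. The first 2 of these are the tumors with muscle sums of 42.7 and 182.5, and the next 2 had the lowest muscle sums of the group. The MaP -/- tumors lay between -0.50 (JM833-T2) and 0.15 (JM663-T2), and the other 6 MaP R172H/- tumors lay between -0.34 (YZ2) and 0.07 (YZ4). Group means were 0.30 ± 0.19 (SD, n = 5) for MaP R245W/-, -0.02 ± 0.48 (SD, n = 7) for MaP R172H/- and -0.23 ± 0.23 (SD, n = 6) for MaP -/- tumors, and no test was run on them. With CPM of the raw total in place of TMM scaling the means were 0.20, -0.0037 and -0.16, so the gaps between groups were smaller. Of the 19 sterol genes, JM1126, JM1133, JM1564 and RM0014 had 18, 17, 16 and 16 above the gene's median over all tumors, and YZ7 had 18. Sums over 8 proliferation markers were 1447 CPM in YZ7 and 773.1 CPM in JM1126, both within the MaP -/- range of 645.4 to 2030 CPM. The part of proliferation in the sterol levels was not tested.

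**Figure D3:**
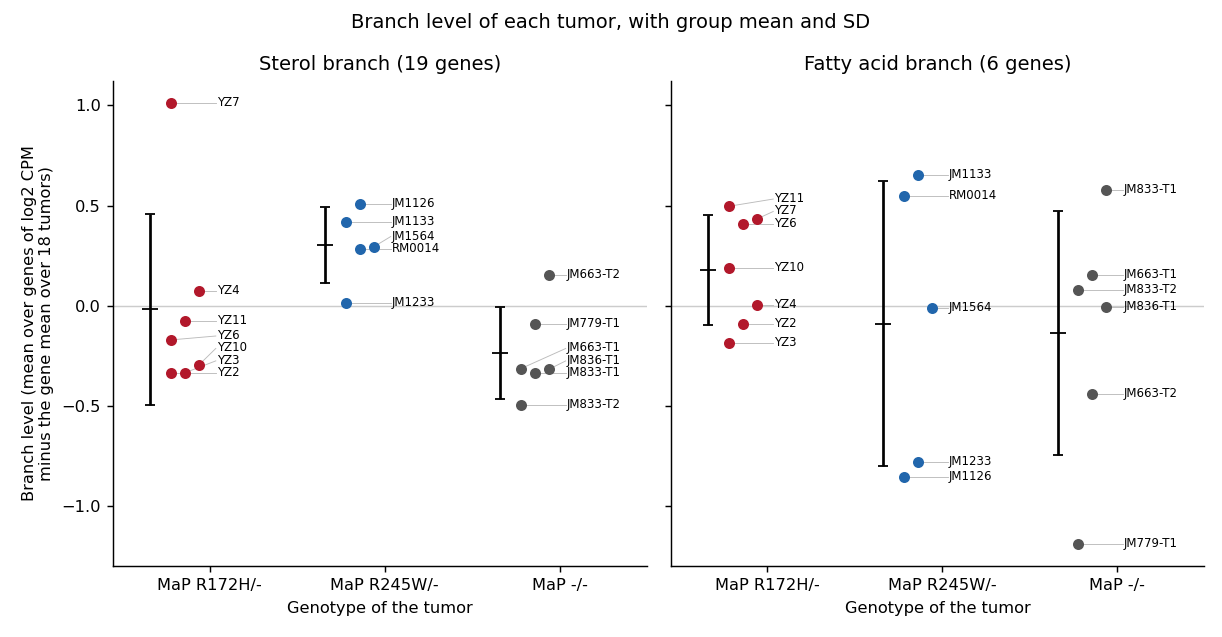
Branch level of each tumor (points, named) by genotype, as the mean over genes of log2 CPM minus the gene's mean over all 18 tumors, with the group mean and SD (black bars), for the sterol branch (left) and the fatty acid branch (right). In the left panel 4 of the 5 MaP R245W/- tumors and YZ7 lie above all MaP -/- tumors, and in the right panel the groups overlap, with JM1126, JM1233 and JM779-T1 lowest.

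Idi1, which converts isopentenyl diphosphate to its isomer dimethylallyl diphosphate, was the one member of the pathway called between the mutant groups. It (ENSMUSG00000058258.16) lies at chr13:8935537-8942487 in GRCm39, plus strand. Its levels were 3.84, 5.27 and 8.67 CPM (lowest, median and highest) in MaP R172H/- tumors and 6.94, 8.05 and 12.9 CPM in MaP -/- tumors. In MaP R245W/- tumors they were 9.28, 15.8, 16.5, 15.6 and 14.8 CPM. Every MaP R172H/- tumor was below every MaP R245W/- tumor, which held for 4.05% of all genes, and both groups overlapped the MaP -/- tumors that lay between them. The fitted log2 fold change between the mutant groups was -1.33 (SE 0.23, FDR 0.00154), and it was the only call above 1 in absolute value. It ranged from -1.46 to -1.25 over the 18 fits that left out a tumor, and Idi1 was called in each. Against MaP -/- tumors it was -0.60 (SE 0.23, unadjusted p 0.0229, FDR 0.132) for MaP R172H/- and 0.70 (SE 0.23, unadjusted p 0.0113, FDR 0.360) for MaP R245W/-. Per kilobase of its canonical transcript, Idi1 had the lowest mean level of the 29 genes in MaP R172H/- tumors, 2.21 CPM per kb. Its exons share 323 bases with those of Gm48574 on the opposite strand.

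The other genes up to farnesyl diphosphate build the isoprenoid units from acetyl-CoA. In MaP R245W/- tumors this was the segment with the most unadjusted p-values below 0.05, 5 of 7 genes, all upward (5.32% of all genes). Mvd, mevalonate diphosphate decarboxylase, had 22.2, 33.3, 30.8, 34.8 and 46.9 CPM in MaP R245W/- tumors, against 14.3, 18.04 and 22.98 CPM (lowest, median and highest) in MaP -/- tumors. Only JM1233 lay within the MaP -/- range. On the log2 scale the difference was 0.90 (SE 0.21, unadjusted p 0.00101, FDR 0.334), the smallest p of the sterol branch in that comparison, and DESeq2's Wald test gave an FDR of 0.00741. MaP R172H/- tumors had 13.0, 23.4 and 54.2 CPM and a log2 fold change of 0.57 (SE 0.28, FDR 0.223), which was 0.30 without YZ7.

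Mvk, mevalonate kinase, had 17.3, 12.5, 12.0, 17.7 and 14.4 CPM in MaP R245W/- tumors and 5.76, 9.04 and 12.1 CPM (lowest, median and highest) in MaP -/- tumors. RM0014 was the only one of the 5 within the MaP -/- range, just under JM779-T1 at 12.1 CPM. MaP R172H/- tumors had 8.94, 11.2 and 43.8 CPM, the last in YZ7. The log2 fold change was 0.74 (SE 0.25, FDR 0.360) for MaP R245W/- and 0.91 (SE 0.38, FDR 0.158) for MaP R172H/-, and the latter was 0.46 without YZ7.

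Pmvk, phosphomevalonate kinase, had 28.8, 24.7, 36.9, 32.1 and 53.8 CPM in MaP R245W/- tumors and 19.1, 21.3 and 28.7 CPM (lowest, median and highest) in MaP -/- tumors. Only JM1564 was within the MaP -/- range. In MaP R172H/- tumors the levels were 16.5, 23.9 and 82.4 CPM, and without YZ7 at 82.4 the highest was 28.2. In edgeR's fit the log2 fold change was 0.66 (SE 0.21, unadjusted p 0.00949, FDR 0.360) for MaP R245W/- and 0.49 (SE 0.34, FDR 0.395) for MaP R172H/-, the latter being 0.03 without YZ7. For the 3 remaining genes of this segment, Acat2, Hmgcs1 and Fdps, log2 fold changes were 0.22 to 0.34 in MaP R172H/- and 0.35 to 0.67 in MaP R245W/- tumors, with Fdps (farnesyl diphosphate synthase) at an unadjusted p of 0.0312 in the latter. All 3 were highest in YZ7, and without it the values in MaP R172H/- tumors were below 0, at -0.083 for Acat2, -0.070 for Hmgcs1 and -0.056 for Fdps.

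The genes from squalene onward make the sterol ring and trim it to cholesterol. In MaP R245W/- tumors 11 of 11 were above 0, with 3 at an unadjusted p below 0.05 (5.32% of all genes upward). Fdft1, squalene synthase, had 38.8, 44.3, 60.2, 76.9 and 56.4 CPM in MaP R245W/- tumors and 28.6, 35.7 and 47.6 CPM (lowest, median and highest) in MaP -/- tumors. JM1233 and JM1564 were within the MaP -/- range. MaP R172H/- tumors had 34.8, 38.4 and 87.9 CPM, and YZ4 and YZ7 (87.9 and 87.8 CPM) were far above the other 5. The fitted log2 fold change was 0.62 (SE 0.21, FDR 0.360) for MaP R245W/- and 0.57 (SE 0.27, FDR 0.210) for MaP R172H/-. Its exons share 1184 bases with those of Ctsb on the opposite strand, the longest overlap with a protein-coding gene after that of Cyp51 with Akap9 (1253 bases).

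Msmo1, a methylsterol oxidase, had 67.9, 77.2, 62.9, 168.9 and 56.6 CPM in MaP R245W/- tumors, with JM1126 far above the rest. MaP R172H/- tumors had 29.9, 39.2 and 75.2 CPM (lowest, median and highest) and MaP -/- tumors 25.9, 43.8 and 91.0 CPM. Between the mutant groups the log2 fold change was -0.97 (SE 0.35, unadjusted p 0.0121, FDR 0.0869). It was -1.15 without YZ7 (FDR 0.0426) and -0.58 without JM1126, so the size of this difference turned on single tumors. The FDR was below 0.05 in only 1 of the 18 fits that left out a tumor. Against MaP -/- tumors the log2 fold change of Msmo1 was -0.19 (SE 0.32, FDR 0.763) for MaP R172H/- and 0.77 (SE 0.39, FDR 0.457) for MaP R245W/-.

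Ebp and Sc5d, the sterol isomerase and the lathosterol desaturase of the late pathway, were the squalene-onward genes with an unadjusted p below 0.05 in MaP R172H/- tumors. Ebp had 37.8, 44.8 and 67.2 CPM (lowest, median and highest) in MaP R172H/- tumors and 22.4, 30.3 and 61.6 CPM in MaP -/- tumors, where JM663-T2 at 61.6 was far above the other 5. All other MaP -/- tumors were at 35.2 CPM or less, under the lowest MaP R172H/- tumor. On the log2 scale the difference was 0.49 (SE 0.22, unadjusted p 0.0474, FDR 0.196) and was 0.74 (FDR 0.0278) without JM663-T2. Of the 13 fits that left out a tumor, this was the only 1 with an FDR of Ebp below 0.05. MaP R245W/- tumors had 50.1, 35.02, 31.9, 51.2 and 67.5 CPM and a log2 fold change of 0.45 (SE 0.28, FDR 0.543). Sc5d had 49.9, 65.5 and 95.5 CPM in MaP R172H/- tumors, 36.5, 56.4 and 69.0 CPM in MaP -/- tumors and 55.1, 62.6, 58.2, 79.9 and 67.9 CPM in MaP R245W/- tumors. Its log2 fold changes were 0.44 (SE 0.20, unadjusted p 0.0442, FDR 0.189) and 0.25 (SE 0.20, FDR 0.633), and the groups overlapped.

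Nsdhl, a sterol dehydrogenase, and Dhcr7, the reductase of the last step from 7-dehydrocholesterol, did not reach an unadjusted p below 0.05 in any of the 3 comparisons. Nsdhl had 12.4, 19.1 and 28.3 CPM (lowest, median and highest) in MaP R172H/-, 13.6, 17.8 and 22.3 CPM in MaP -/- and 23.9, 25.5, 15.5, 26.4 and 29.2 CPM in MaP R245W/- tumors. Dhcr7 had 25.3, 37.4 and 65.3 CPM in MaP R172H/-, 24.6, 32.6 and 43.9 CPM in MaP -/- and 23.4, 95.9, 44.9, 55.7 and 40.2 CPM in MaP R245W/- tumors, where JM1564 was highest and JM1233 lowest. YZ7, at 33.7 CPM, was below the median of its group. Log2 fold changes for Nsdhl and Dhcr7 were 0.15 (SE 0.19) and 0.30 (SE 0.21) in MaP R172H/- and 0.41 (SE 0.20) and 0.63 (SE 0.30) in MaP R245W/- tumors. For Dhcr7 the latter was 0.29 without JM1564. The 5 remaining genes, Sqle, Lss, Cyp51, Tm7sf2 and Hsd17b7, had log2 fold changes of 0.11 to 0.67 in MaP R172H/- and 0.15 to 0.72 in MaP R245W/- tumors. Without YZ7 the value in MaP R172H/- tumors was 0.13 for Sqle, 0.00059 for Lss and -0.26 for Hsd17b7. Of these, Cyp51, the sterol 14-alpha demethylase, and Tm7sf2, a sterol reductase, reached an unadjusted p below 0.05 in MaP R245W/- tumors (0.0377 and 0.0212). Exons of Tm7sf2 share 532 bases with those of Vps51 on the same strand.

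Stard4, which carries cholesterol between membranes, had the narrowest spread in MaP R245W/- tumors, at 40.5, 42.4, 47.1, 42.3 and 44.1 CPM. MaP -/- tumors had 27.2, 33.7 and 40.3 CPM (lowest, median and highest), so every MaP R245W/- tumor was above every MaP -/- tumor, by a margin of JM1233 at 40.5 over JM779-T1 at 40.3. It was the only one of the 29 genes with this separation, which 0.475% of all genes showed. The log2 fold change was 0.37 (SE 0.15, unadjusted p 0.0287, FDR 0.384). MaP R172H/- tumors had 16.9, 23.95 and 57.8 CPM, and all but YZ7 were at 33.4 CPM or less. Between the mutant groups the log2 fold change was -0.60 (SE 0.24, FDR 0.123), and without YZ7 it was -0.87 (FDR 0.00304). The FDR of Stard4 was below 0.05 in only 1 of the 18 fits that left out a tumor and reached 0.199 over them.

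**Figure D4:**
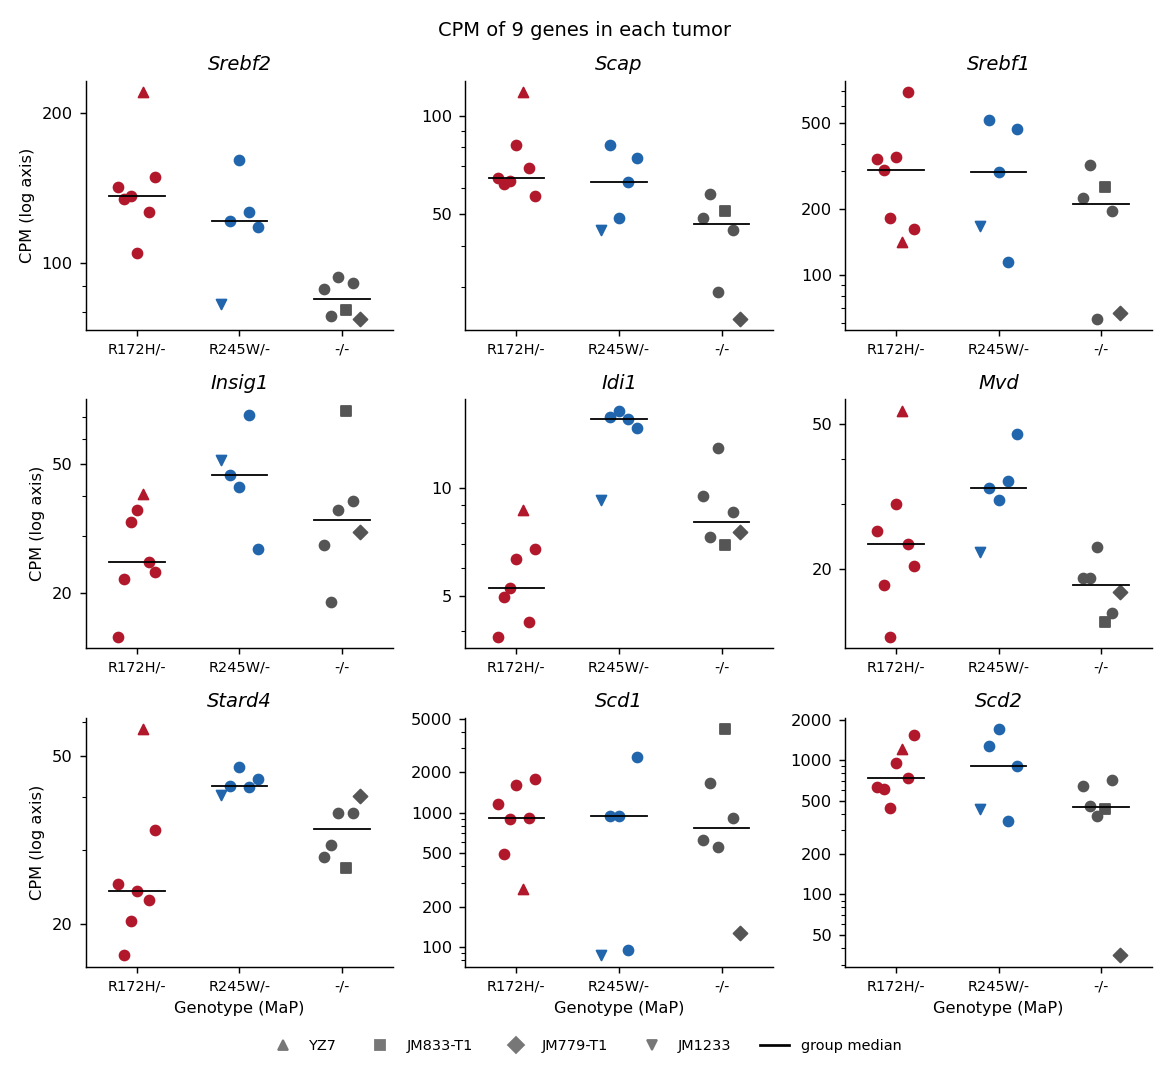
CPM (log axes) of 4 regulators, 3 sterol branch genes and 2 desaturases in each tumor (points) by genotype, with the group median (line) and separate symbols for YZ7, JM833-T1, JM779-T1 and JM1233. Srebf2 is above all MaP -/- tumors in every MaP R172H/- tumor, Idi1 separates the mutant groups, Stard4 is narrow in MaP R245W/- tumors, and Scd1 and Scd2 extend over more than an order of magnitude.

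In the fatty acid branch the median log2 fold change over the 6 genes was 0.15 in MaP R172H/- and -0.11 in MaP R245W/- tumors, 4 and 2 of them above 0, and 0.15 between the mutant groups. Neither edgeR nor DESeq2 called a gene of the branch in the 3 comparisons. In edgeR's test 1 gene, Acly, reached an unadjusted p below 0.05 in each comparison with MaP -/- tumors and none between the mutant groups. Of all genes, 11.6% did so upward in MaP R172H/- and 5.32% in MaP R245W/- tumors. Branch means were 0.18 ± 0.27 (SD, n = 7) in MaP R172H/-, -0.09 ± 0.71 (SD, n = 5) in MaP R245W/- and -0.14 ± 0.61 (SD, n = 6) in MaP -/- tumors. The SDs of the last 2 groups exceed every difference between the means. With CPM of the raw total the means were 0.19, -0.20 and -0.06, so the order of the last 2 groups turned.

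The branches parted in single tumors. JM1126 ranked 2 of 18 for the sterol branch and 17 for the fatty acid branch (-0.85), and JM833-T1 ranked 17 for the sterol branch and 2 for the fatty acid branch (0.58). JM779-T1 was lowest for the fatty acid branch (-1.19) and ranked 10 for the sterol branch. JM833-T1 is the library with the high adipocyte sum, and JM779-T1 the one with the lowest epithelial sum, while JM1126, with an epithelial sum of 4136, had the lowest sum over 6 milk secretory markers (11.48). The part of these cell types in the levels was not tested.

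Acly, which makes cytosolic acetyl-CoA from citrate and feeds both branches, was the fatty acid gene with an unadjusted p below 0.05. It was also the steadiest of the 29 genes, at 1.73-fold between its lowest and highest tumor. It had 311.3, 444.7 and 530.1 CPM (lowest, median and highest) in MaP R172H/- tumors, 306.2, 343.1 and 409.6 CPM in MaP -/- tumors and 329.3, 472.5, 506.2, 476.7 and 472.3 CPM in MaP R245W/- tumors. Among the last, 4 of 5 were above every MaP -/- tumor and JM1233 was far below the other 4. In edgeR's fit the log2 fold change was 0.32 (SE 0.14, unadjusted p 0.0468, FDR 0.195) in MaP R172H/- and 0.38 (SE 0.16, unadjusted p 0.0364, FDR 0.396) in MaP R245W/- tumors. Its exons share 211 bases with those of Odad4 on the opposite strand.

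Acaca and Fasn carry out the committed step and the chain building of fatty acid synthesis. Acaca had 131.3, 145.5 and 453.5 CPM (lowest, median and highest) in MaP R172H/- tumors, 92.0, 182.2 and 304.1 CPM in MaP -/- tumors and 78.6, 155.9, 239.1, 113.5 and 232.4 CPM in MaP R245W/- tumors. YZ7 at 453.5 CPM was far above the rest of its group, where the next was 174 CPM. Fasn had 399.5, 452 and 687.9 CPM in MaP R172H/- tumors, 285.5, 443.5 and 968.2 CPM in MaP -/- tumors, with JM833-T1 highest, and 342.3, 312.3, 524.9, 368.8 and 660.8 CPM in MaP R245W/- tumors. Log2 fold changes for Acaca and Fasn were 0.08 (SE 0.35) and -0.04 (SE 0.26) in MaP R172H/- and -0.18 (SE 0.37) and -0.24 (SE 0.32) in MaP R245W/- tumors, so for both genes the error was larger than the difference.

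Elovl6, which lengthens palmitate to stearate, had 52.0, 80.7 and 147.9 CPM (lowest, median and highest) in MaP R172H/- tumors, 58.9, 76.0 and 93.7 CPM in MaP -/- tumors and 115.2, 33.4, 92.7, 42.0 and 86.7 CPM in MaP R245W/- tumors. JM1233 lay above the MaP -/- range, JM1564 and JM1126 below it and the other two within it. Log2 fold changes were 0.22 (SE 0.22, FDR 0.561) and -0.04 (SE 0.30, FDR 0.971).

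Scd1 and Scd2, desaturases that place a double bond in stearate and palmitate, had the widest ranges, at 48.1-fold and 48.4-fold between lowest and highest tumor. They lie near each other at chr19:44382894-44399154 (minus strand) and chr19:44281613-44295303 (plus strand) in GRCm39 and belong to a family of similar genes, between which estimated counts can be split with error. Scd1 had 271.4, 914.3 and 1768 CPM (lowest, median and highest) in MaP R172H/- tumors and 128.1, 768.9 and 4173 CPM in MaP -/- tumors. In MaP R245W/- tumors it had 86.8, 949.2, 948.3, 94.6 and 2578 CPM. The highest tumor was JM833-T1, and the lowest were JM1233, JM1126 and JM779-T1, so the extremes of Scd1 fell within genotypes. Its log2 fold changes of -0.37 (SE 0.63) and -0.54 (SE 0.95) had errors larger than the differences, and both turned to 0.42 and 0.25 without JM833-T1.

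Scd2 had 437.3, 731 and 1552 CPM (lowest, median and highest) in MaP R172H/- tumors and 35.1, 445.5 and 713.6 CPM in MaP -/- tumors, with JM779-T1 lowest. In MaP R245W/- tumors it had 432.5, 1272, 1702, 353.6 and 912 CPM. The fitted log2 fold change was 1.01 (SE 0.49, unadjusted p 0.0588, FDR 0.223) in MaP R172H/- and 1.07 (SE 0.61, unadjusted p 0.106, FDR 0.504) in MaP R245W/- tumors. It was 0.77 in MaP R172H/- tumors without JM779-T1. JM833-T1, the highest tumor for Scd1, was at 431.9 CPM for Scd2 and so did not stand out. Per kilobase of canonical transcript, Scd1 and Scd2 had the highest mean levels of the 29 genes in MaP R172H/- tumors, 201.7 and 160.7 CPM per kb, followed by Acly at 96.1, and the highest sterol gene was Fdps at 66.1.

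Other genes of sterol and fatty acid handling were taken as 3 lists. Of 10 genes of sterol export and storage, 1 was called higher (3.67% of all genes) and 1 lower (4.73% of all genes) in MaP R172H/- tumors and none in MaP R245W/- tumors by edgeR, where 0 reached an unadjusted p below 0.05 and DESeq2 called 0. The higher one was Nr1h2, which encodes the oxysterol receptor LXR beta. It had 56.9, 73.3 and 86.8 CPM (lowest, median and highest) in MaP R172H/- and 26.7, 37.2 and 41.3 CPM in MaP -/- tumors, a log2 fold change of 1.06 (SE 0.14, FDR 0.000786), and its groups were apart. The lower one was Abca1, a cholesterol exporter that LXR receptors induce, with 151.8, 284.4 and 459 CPM against 443.8, 485.1 and 670.9 CPM and a log2 fold change of -0.80 (SE 0.22, FDR 0.0373). Npc2, a lysosomal cholesterol carrier, had an edgeR log2 fold change of -0.82 (SE 0.25, unadjusted p 0.00602, FDR 0.0619) in MaP R172H/- tumors, where DESeq2 did call it lower. Between the mutant groups, which were apart, edgeR gave -1.24 (SE 0.28, FDR 0.00894). Nr1h2 was also called between the mutant groups (0.68, SE 0.16, FDR 0.0127). Between these groups 2.91% of all genes were called higher and 6.49% lower, and 4.05% were lower without overlap, as Npc2 was. Beside these, 3 of 6 leukocyte and macrophage markers were called lower in the MaP R172H/- group when set against MaP -/- (4.73% of all genes), with sums of 289.8 to 412.7 against 405.3 to 1074 CPM, and their part in the levels of Abca1 and Npc2 was not tested.

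Of 14 other fatty acid genes, none was called by edgeR in any comparison, and in each comparison 1 had an unadjusted p below 0.05. The share of all genes with such a p in the same direction was 11.6% (higher in MaP R172H/-), 5.32% (higher in MaP R245W/-) and 14.6% (lower between the mutant groups). DESeq2 called 1 of them, in MaP R172H/- tumors. This was Fads2, a desaturase for polyunsaturated fatty acids, with a log2 fold change of 1.54 (SE 0.48, unadjusted p 0.00622, FDR 0.0631) and the highest level, 450.6 CPM, in YZ7. Of 12 genes of SREBP processing and partner factors, none was called against MaP -/- tumors by edgeR or DESeq2, and an unadjusted p below 0.05 was reached by 1, downward, in MaP R172H/- (13.1% of all genes) and 0 in MaP R245W/- tumors.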

How the data were processed

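RNA from 18 mouse mammary tumors was prepared with a stranded total RNA kit after ribosomal RNA removal. The authors checked read quality (FastQC 0.11.9), aligned them to GRCm39 with STAR 2.7.10b and GENCODE M34, and quantified genes with RSEM 1.3.3. The deposited values are each gene's expected count from RSEM, which the authors gave as whole numbers without normalization. The strand setting of the counting is not given in the sources used here, and exons of 18 of the 29 genes overlap those of another gene, 16 of them on the opposite strand.

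Gene identifiers were matched without their version to GENCODE M39, where 56620 of 57126 had a name. Each comparison was fitted with edgeR 4.0.16 in R 4.3.3 (TMM scaling, filterByExpr, quasi-likelihood test) over all genes that passed the filter, with Benjamini-Hochberg adjustment and calls at an FDR below 0.05. MaP R172H/- and MaP R245W/- were each fitted with MaP -/- tumors, and the mutant groups were compared in a fit of all 18. The SE of a log2 fold change was taken as its size over the square root of F. The study's methods use DESeq2, and its Wald test (DESeq2 1.42.0) was run as an alternative. Levels are CPM over TMM library sizes, and branch levels use log2 CPM with a prior count of 2. The steps were tested on simulated data. Other alternatives were DESeq2 size factors, other count filters, tumors of 1 mouse summed, other sets of tumors in the fit and leaving out each tumor. Leaving out YZ7 and JM833-T1 together was chosen after seeing the data.

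The 29 genes and all other lists were chosen with earlier results of these data known. Regulators, fatty acid genes, and sterol genes with an FDR below 0.05 or among the 5 smallest p-values of their branch in a comparison are given in full, and the others by range. Genes of the other lists are named at an FDR below 0.05 or an unadjusted p below 0.01 against MaP -/- tumors. The contrast between the mutant groups is not reported here for the list of SREBP processing and partner factors. Counts carry no molecular identifiers.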

Additional observations from a re-analysis of the deposited data

Results flagged for a closer look

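Levels far from the rest of their group were looked for in 93 sets of values, 1 for each gene or branch level in each genotype, by the gap of the extreme tumor to its nearest neighbor over the range of the group. In all, 23 were marked, 15 of them for YZ7. The cutoffs hold for normally distributed values, whereas most sets were CPM without log, and the sets share tumors and a pathway. The number marked can therefore not be set against chance. YZ7 was the highest MaP R172H/- tumor for Acat2 (56.69 CPM), Mvk (43.84 CPM), Pmvk (82.4 CPM), Mvd (54.23 CPM), Fdps (213.5 CPM), Sqle (390.9 CPM), Lss (87.29 CPM) and Tm7sf2 (21.74 CPM). The same tumor was highest for Hsd17b7 (81.65 CPM), Ebp (67.21 CPM), Stard4 (57.84 CPM), Srebf2 (219.4 CPM), Scap (117.8 CPM) and Acaca (453.5 CPM), and its sterol branch level was 1.0117 where the next tumor of the group had 0.0729. It is also the MaP R172H/- tumor with the lowest epithelial sum, and the part of cell content in these levels was not tested.

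The other 8 values came from other tumors. In MaP -/- tumors, JM663-T2 was far above the rest for Cyp51 (93.11 CPM) and Ebp (61.62 CPM), JM779-T1 for Pmvk (28.74 CPM) and JM833-T1 for Insig1 (73.34 CPM). In MaP R245W/- tumors, JM1233 was far below the rest for Idi1 (9.284 CPM) and Acly (329.3 CPM), and JM1126 was far above for Msmo1 (168.9 CPM). YZ10 was far above the other MaP R172H/- tumors for Srebf1 (693.2 CPM). The difference between the mutant groups passed edgeR's test for Idi1, with a log2 fold change of -1.328 in MaP R172H/- against MaP R245W/- tumors.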

How the results depend on the processing

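Of the 29 genes, the 2 called in MaP R172H/- against MaP -/- tumors became 1 with no filter on low counts, 1 with tumors of 1 mouse summed and 1 without YZ7 and JM833-T1 together, and 1 to 2 when a tumor was left out. Scap was the gene lost, with an FDR of 0.0701, 0.0595 and 0.0551 in the first 3 of these, and Srebf2 was called under every alternative run, at an FDR of 6.93e-05 to 0.0297. The 0 calls in MaP R245W/- against MaP -/- tumors became 1 (Mvd) with DESeq2's Wald test and stayed 0 when a tumor was left out. Between the mutant groups the 1 call became 6 without YZ7 and JM833-T1 together. It was 1 to 4 when a tumor was left out, 4 without YZ7, and Idi1 was among the calls in each. In the main fit 2114 of all 22481 genes tested were called. The number over all genes in the other fits is not given here, so the rise cannot be read as particular to the 29 genes. Without YZ7 and JM833-T1, log2 fold changes in MaP R172H/- against MaP -/- tumors changed sign for Acat2 (-0.089), Fdps (-0.18), Lss (-0.0043), Hsd17b7 (-0.36), Acaca (-0.082), Fasn (0.18), Elovl6 (-0.011) and Scd1 (0.59). Between the mutant groups they changed sign for Mvk (-0.30), Sqle (-0.23), Ebp (-0.087), Srebf1 (0.12) and Acaca (-0.13). Lss and Srebf1, close to 0 between the mutant groups, also changed sign with no filter (0.0057 and 0.0086), with at least 10 counts in every tumor (0.028 and 0.032) and with tumors of 1 mouse summed (0.017 and 0.012), and Lss with DESeq2 size factors (0.0047). The cause was not tested. No paired analysis was possible because replicate numbers only name tumors in this series. The lowest count of any of the 29 genes in a tumor was 89, for Idi1 in YZ2, and the part of depth in the levels was not tested. Genotype R172H, sequencing platform and tumor subtype cannot be told apart.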

Other observations

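The 2 tumors of 1 mouse differed in these genes, although they shared host and genotype. In mouse JM663, Srebf1 was at 319.5 CPM in T1 and 62.8 CPM in T2, a 5.09-fold difference. Scd1 was at 1652 and 551.7 CPM and Acaca at 243.1 and 105.8 CPM in the same tumors. Of the 6 fatty acid genes 5 were higher in T1, and of the 19 sterol genes 14 were higher in T2 and 5 in T1. The sterol genes farthest apart were Hsd17b7 at 18.6 CPM in T1 and 65.4 CPM in T2 and Cyp51 at 43.5 and 93.1 CPM. In mouse JM833, 10 sterol genes were higher in T1 and 8 in T2, and T1 was above T2 for Scd1 (4173 and 916.5 CPM), Fasn (968.2 and 441.8 CPM) and Hmgcs1 (95.7 and 45.7 CPM), and below it for Scd2 (431.9 and 713.6 CPM). The adipocyte sums of these tumors were 4532 CPM in T1 and 459.2 CPM in T2, and their part in the levels was not tested. The genes were picked after their values were seen, with 1 tumor on each side and no replicate.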
